A study of Mus musculus with 25 samples.

Results

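The genes described here encode amino acid and neurotransmitter transporters, and they were followed in pituitary tumors that grew while RB was depleted and in tumors in which RB had returned. Members were all listed genes whose symbols carry the solute carrier stems Slc1, Slc3, Slc6, Slc7, Slc17, Slc18, Slc32, Slc36, Slc38 or Slc43. They number 50 of the 15768 genes listed in either of the deposited tables. All 50 are among the 15315 genes of the long-term table, and 44 are among the 14007 genes of the short-term table. The 6 members found in the long-term table alone are *Slc1a6*, *Slc6a8*, *Slc6a14*, *Slc7a3*, *Slc7a10* and *Slc32a1*. Of these, *Slc6a8*, *Slc6a14* and *Slc7a3* lie on chromosome X. The short-term table lists 1 chromosome X gene in all, against 518 in the long-term table, so their absence there is no measure of their level. One symbol matched by its stem only: *Slc7a6os* is an opposite-strand neighbour of *Slc7a6* and encodes no transporter, and it stays in every count.

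RNA came from pituitaries of shRb mice, which carry a Rosa26-rtTA allele and a Col1a1-shRb transgene, and all derive from 1 targeted stem cell clone. Doxycycline (dox) in the drinking water lets rtTA switch on an shRNA against *Rb1* together with a *GFP* reporter, and because the Rosa26 promoter is active in most tissues, RB is lowered throughout the body and not in the pituitary alone. The mice were young adults when dox began. In the long-term experiment, on polyA-enriched libraries, 3 female mice had 6 weeks of dox (6w+dox), 2 females and 2 males had 12 weeks of dox (12w+dox), and 3 females and 2 males had 6 weeks of dox and then 6 weeks without it (12w-res). In the short-term experiment, on libraries depleted of rRNA, 3 males had 16 weeks of dox (16w +dox), and others were taken 1 day (4 females, 1d -dox), 3 days (3 males, 3d -dox) or 5 days (3 females, 5d -dox) after the same dox treatment ended. No group without the transgene or without any dox was sequenced among these samples. The 12w-res and 12w+dox mice therefore differed in RB and in dox itself, and the effects of both cannot be told apart.

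Values are FPM, reads scaled by the size factors of each experiment, and every value corresponded to a whole number of reads. Reads on genes ranged from 19066053 to 28968476 per mouse in the long-term experiment and from 9573101 to 13036900 in the short-term experiment. *Rb1*, the gene that the shRNA targets, stood at 1.86, 2.54 and 5.09 FPM in the 6w+dox mice, 2.42, 2.93, 3.45 and 4.05 FPM in the 12w+dox mice and 16.1, 17.01, 18.2, 19.2 and 20.3 FPM in the 12w-res mice. All 5 rescued mice were thus above all 7 dox-treated mice, whereas *Rb1* stayed between 3.47 and 6.03 FPM in all 13 mice of the short-term experiment. *Pomc*, the hormone precursor of melanotrophs and corticotrophs, took 12.9 to 43.2% of all reads in the long-term experiment and 4.96 to 17.9% in the short-term experiment. Its share was 39.1 to 43.2% in 12w-res, above every dox-treated mouse, so that the choice of scaling matters for the comparisons with 12w-res and is given beside them.

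Transporters of the solute carrier families move amino acids and transmitters across the plasma membrane, the lysosome and synaptic or secretory vesicles. Many members of the Slc7 family work as pairs: a light chain such as *Slc7a5*, *Slc7a7*, *Slc7a8* or *Slc7a11* does the transport and the heavy chain *Slc3a2*, also called CD98, brings it to the cell surface. When amino acids run short or protein folding is disturbed, the transcription factor ATF4 raises amino acid carriers and synthesis enzymes through a composite C/EBP-ATF element. Melanotrophs, a main cell of origin of RB-deficient pituitary tumors in mice, make large amounts of peptide hormone and load it, with other small molecules, into secretory vesicles.

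Because ATF4 and E2F, the factor family that RB restrains, act on promoters, the 250 bases before each start were searched on both strands for the composite element, spelled TGATGNAA, and for an E2F site, spelled TTTGGCGC or TTTCCCGC. These windows came from RefSeq on build GRCm38.p6, and 37 of the 50 members had at least 1, for 49 windows in all. The composite element was present in 3 of the 49 member windows and in 3.45% of all 32851 promoter windows. It lay in windows of *Slc7a11*, the cystine-glutamate exchanger xCT, and of *Slc7a7*, the light chain y+LAT1. Both of these genes were called higher below in comparisons with 6w+dox, and neither was called between 12w-res and 12w+dox. The windows are shown because these are the members with the element, with each match in capitals. The *Slc7a11* window is chr3:50443614-50443863 on the minus strand, and its 2 matches, on opposite strands, begin 66 and 47 bases before the start. The *Slc7a7* window is chr14:54417703-54417952 on the minus strand, and its match begins 243 bases before the start.
Slc7a11: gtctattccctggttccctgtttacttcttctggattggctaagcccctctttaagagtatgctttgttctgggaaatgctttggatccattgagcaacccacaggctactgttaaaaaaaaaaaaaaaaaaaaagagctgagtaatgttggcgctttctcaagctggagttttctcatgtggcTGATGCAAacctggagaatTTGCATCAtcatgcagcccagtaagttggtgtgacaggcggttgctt
Slc7a7: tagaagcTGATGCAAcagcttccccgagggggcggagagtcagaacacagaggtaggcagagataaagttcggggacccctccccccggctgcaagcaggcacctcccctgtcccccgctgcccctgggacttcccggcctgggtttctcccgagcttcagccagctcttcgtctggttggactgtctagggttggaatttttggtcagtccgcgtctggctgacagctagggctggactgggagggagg
A window of *Slc7a7* at another annotated start, chr14:54417945-54418194, held 1 further match. The E2F site was present in 1 member window, that of the lysosomal sialic acid exporter *Slc17a5*, and in 1.30% of all windows. These are letter matches, and no factor binding was measured.

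The first question was how the transporters differed as tumors grew from 6 to 12 weeks of dox. Calls required both an adjusted p under 0.05 in limma, corrected over all genes of the experiment, and an absolute log2 fold change over 1. Between 12w+dox and 6w+dox, 3 members were called higher, beside 3.15% of all genes tested, and 4 were called lower, beside 4.04%. Those higher were *Slc36a4*, *Slc6a15* and *Slc7a7*, and those lower were *Slc1a2*, *Slc1a3*, *Slc1a4* and *Slc6a9*. The groups did not overlap for 16 of the 50 members, beside 25.2% of all genes, and the median log2 fold change of the members was 0.02, beside -0.0063 for all genes.

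The second question was what followed when RB was allowed to return. Between 12w-res and 12w+dox, 11 members were called higher, beside 6.24% of all genes, and 2 were called lower, beside 5.04%. The groups did not overlap for 22 of the 50 members, beside 34.5% of all genes, and the median log2 fold change was 0.36 for the members and -0.0040 for all genes. The 11 higher members were *Slc7a3*, *Slc17a9*, *Slc7a8*, *Slc1a7*, *Slc1a1*, *Slc1a4*, *Slc6a9*, *Slc18a1*, *Slc3a2*, *Slc38a10* and *Slc6a17*, and the 2 lower members were *Slc36a4* and *Slc43a1*. By RefSeq on GRCm38.p6, the 3 members with the largest differences lie at chrX:101079146-101090452 (*Slc7a3*), chr2:180724576-180742280 (*Slc17a9*) and chr14:54722215-54781886 (*Slc7a8*). Between 12w-res and 6w+dox, 12 members were called higher, beside 5.81% of all genes, and 3 were called lower, beside 5.82%. For this comparison the groups did not overlap for 25 members, beside 32.7% of all genes. Without the minimum fold change, 7 members were higher and 6 lower between 12w+dox and 6w+dox, beside 10.4% and 12.0% of all genes. Counted in the same way there were 22 and 4 between 12w-res and 12w+dox, beside 19.4% and 18.3%, and 22 and 3 between 12w-res and 6w+dox, beside 17% and 16.8%. The 3 comparisons share their samples in pairs, so their values are set side by side and are not independent of each other.

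**Figure D1:**
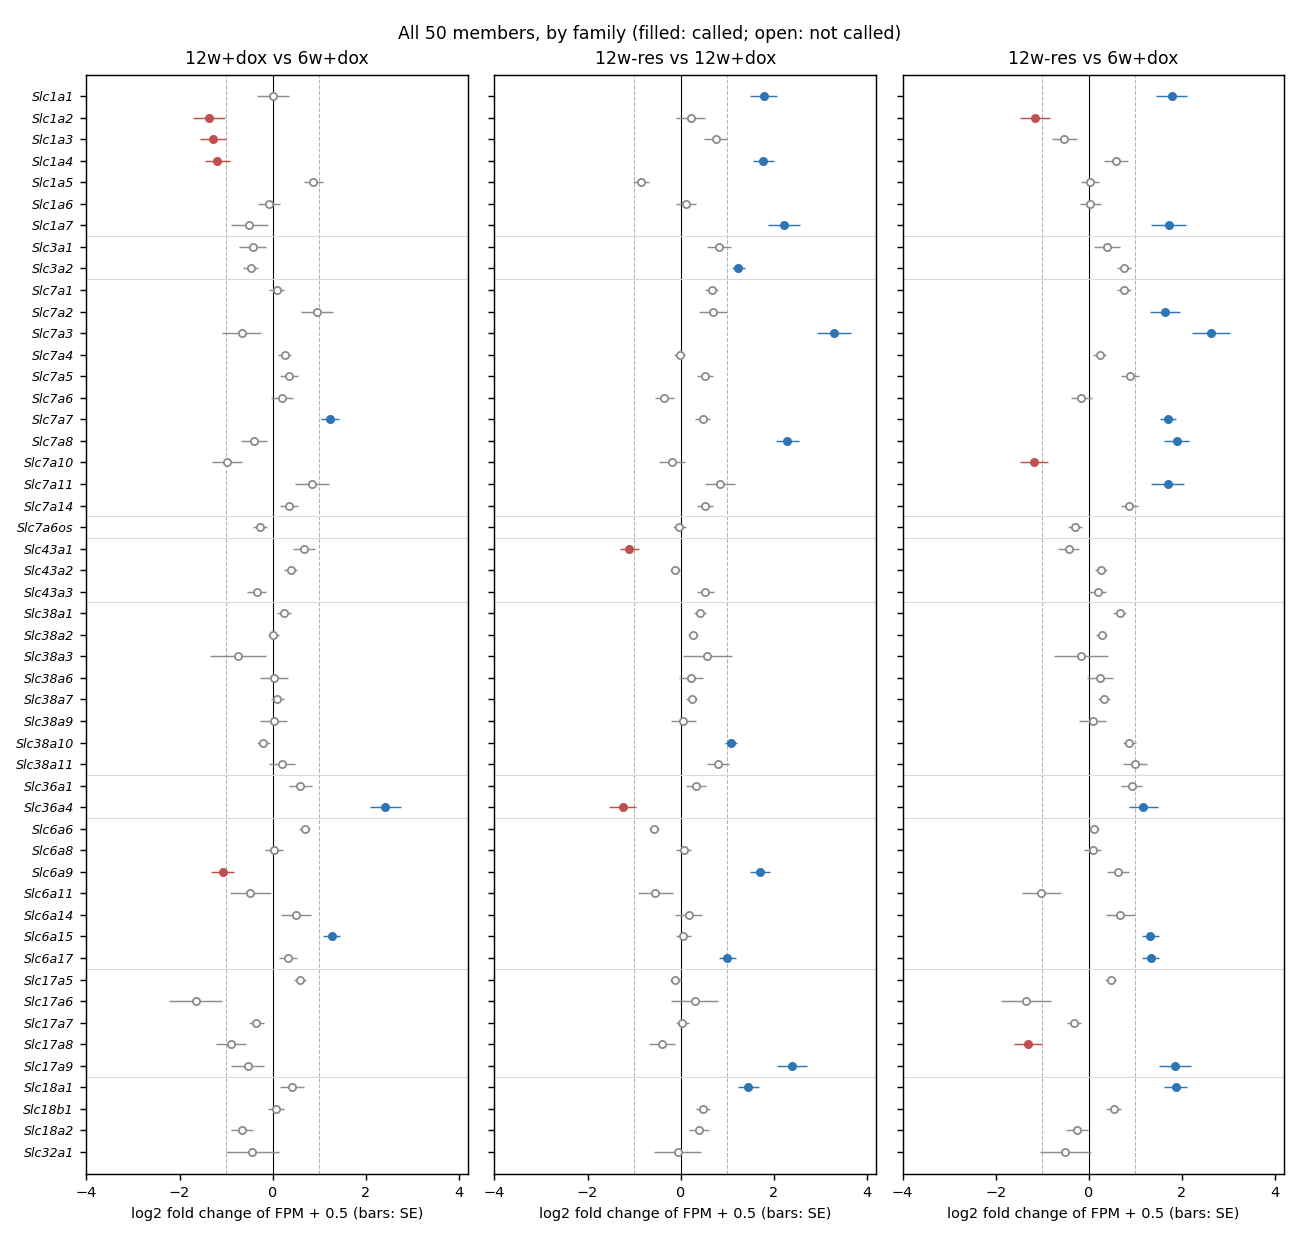
Log2 fold change (x axis, on FPM + 0.5, with SE bars) of all 50 members (y axis, by family) in the 3 long-term comparisons; filled points are called, blue higher and red lower, open points are not called, and dashed lines mark an absolute log2 fold change of 1. Called members lie mostly to the right in the middle and right panels (11 higher and 2 lower, then 12 higher and 3 lower), while the left panel has 3 higher and 4 lower.

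Scaling to the totals of the recovered reads, which gives weight to the large *Pomc* share, shifted the median of all genes on the log2 scale from -0.0040 to -0.61 between 12w-res and 12w+dox, and that of the members from 0.36 to -0.23. On the totals 7 members were called higher and 5 lower, whereas all genes went from 955 higher and 772 lower to 244 higher and 3364 lower. The median of the members lay above that of all genes on both scales. A change of scale shifts all genes by a similar amount, so it could not test the order of these medians. Between 12w+dox and 6w+dox the totals moved the median of all genes to 0.29, with 6 members higher and 0 lower, beside 1058 and 317 of all genes. Between 12w-res and 6w+dox they moved it to -0.33, with 10 members higher and 5 lower, beside 497 and 1638 of all genes. Among females alone, which leaves 2 mice in 12w+dox and 3 in each of the other groups, 3 members were higher and 1 lower between 12w+dox and 6w+dox, 8 and 2 between 12w-res and 12w+dox, and 13 and 2 between 12w-res and 6w+dox. Over all genes, the calls among females numbered 281 higher and 316 lower, then 775 and 637, and in the third comparison 978 were lower and 50.6% of calls were higher. No call of a member changed direction under any alternative, and the members that lost their call on the totals are named with their values below.

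The cell surface heavy chain and 1 of its light chains were among the 5 most abundant members per length. *Slc3a2*, the CD98 heavy chain, stood at 99.3, 107 and 144 FPM in 6w+dox, 68.1, 77.8, 88.5 and 99.7 FPM in 12w+dox and 166, 189, 203, 205 and 217 FPM in 12w-res. All 5 rescued mice lay above all 7 dox-treated mice. Its log2 fold change was 1.23 ± 0.14 (limma adjusted p = 1.24e-05) between 12w-res and 12w+dox, and it kept its sign but fell to 0.58 ± 0.13 on the totals. *Slc7a8*, the LAT2 light chain for neutral amino acids, stood at 43.4, 48.1 and 57.9 FPM in 6w+dox, 22.1, 37.9, 41.3 and 56.7 FPM in 12w+dox and 120.1, 169.6, 179.5, 234 and 252 FPM in 12w-res. The rescued mice did not overlap with either dox-treated group. It had a log2 fold change of 2.29 ± 0.25 (limma adjusted p = 9.44e-06) against 12w+dox and 1.89 ± 0.27 (limma adjusted p = 1.26e-04) against 6w+dox, and the first was called under all 25 alternatives tried, each mouse left out included. Between 12w+dox and 6w+dox *Slc7a8* was not called, at -0.40 ± 0.28 (limma adjusted p = 0.328).

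Another light chain, *Slc7a7*, was called in the comparisons with 6w+dox. It stood at 2.94, 3.14 and 3.52 FPM in 6w+dox, 6.22, 8.04, 8.13 and 10.9 FPM in 12w+dox and 9.88, 10.8, 11.5, 12.0 and 13.7 FPM in 12w-res. Both 12-week groups lay above all 6w+dox mice and overlapped with each other. It was called higher between 12w+dox and 6w+dox, at 1.23 ± 0.19 (limma adjusted p = 9.32e-04), and between 12w-res and 6w+dox, at 1.70 ± 0.18 (limma adjusted p = 1.10e-05). *Slc7a7* is also made by macrophages, and the summed level of 8 macrophage markers was 97.2 to 144 FPM in 6w+dox, 102 to 133 FPM in 12w+dox and 155 to 229 FPM in 12w-res. The part of macrophages in the *Slc7a7* result was not tested. *Slc7a5*, the LAT1 light chain for large neutral amino acids, stood at 48.6, 50.9, 53.8 and 58.7 FPM in 12w+dox and 61.5, 63.0, 70.3, 75.3 and 126 FPM in 12w-res, without overlap. Its change passed the adjusted p but not the minimum fold change, at 0.52 ± 0.18 (limma adjusted p = 0.0312), and the highest rescued mouse was far from the other 4. *Slc7a6*, the y+LAT2 light chain, was not called in any of the 3 comparisons.

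*Slc7a11*, which exchanges cystine for glutamate and whose promoter window is printed above, was low throughout. It stood at 0, 0.401 and 0.538 FPM in 6w+dox, 0.554, 0.586, 1.05 and 1.61 FPM in 12w+dox and 1.06, 1.33, 2.27, 2.86 and 3.23 FPM in 12w-res. These values rest on 0 to 71 reads in each mouse. The rescued mice were above all 6w+dox mice and overlapped with 12w+dox. It was called between 12w-res and 6w+dox, at 1.69 ± 0.35 (limma adjusted p = 0.00216). *Slc7a10*, the Asc-1 light chain that carries small neutral amino acids and D-serine in glia, neurons and fat, was called lower in the same comparison, at -1.17 ± 0.30 (limma adjusted p = 0.00889), but it had only 1 to 32 reads per mouse and its groups overlapped. Its call was lost without 6w+dox replicate 1, where the log2 fold change was -0.84.

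Since the light chains share 1 heavy chain, their proportions were computed within each mouse from FPM per kb of transcript, a level per length that does not depend on scaling between mice. *Slc7a8* made up 40.4% ± 2.59 (SD, n = 3) of the 6 light chains in 6w+dox, 28.5% ± 7.47 (SD, n = 4) in 12w+dox and 59.2% ± 10.7 (SD, n = 5) in 12w-res. *Slc7a5* made up 39.4% ± 4.18, 46.0% ± 7.24 and 29.3% ± 11.3 in the same order. The lowest *Slc7a8* share in 12w-res was 40.6% and the highest in 12w+dox was 37.4%, so that these groups did not overlap, while the shares of 12w-res and 6w+dox did. The *Slc7a5* shares of 12w-res and 12w+dox overlapped through 1 rescued mouse at 49.4%. *Slc7a6* made up 13.8% ± 2.92 in 12w+dox and 4.58% ± 1.18 in 12w-res, without overlap, although its own level was not called.

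**Figure D2:**
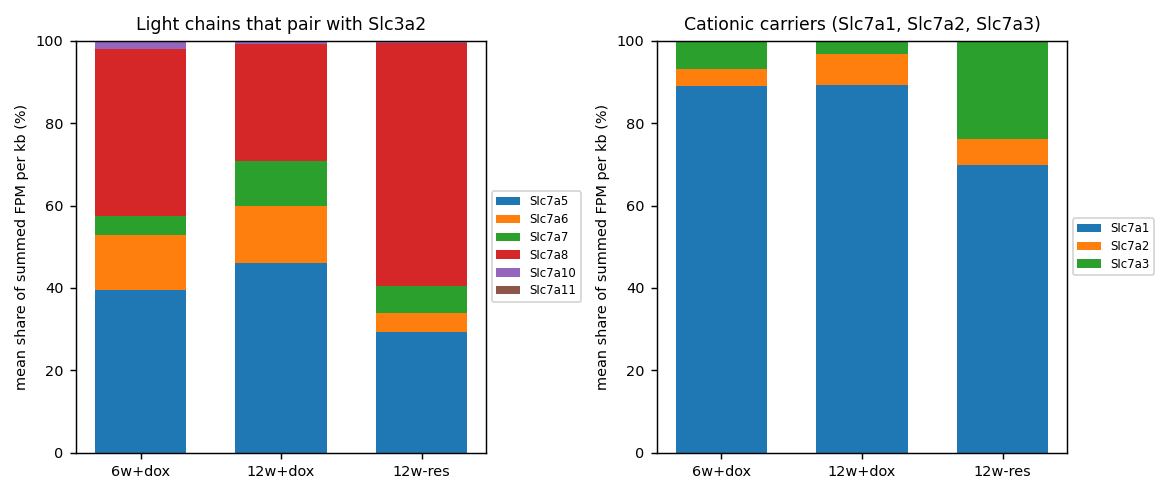
Mean share (y axis, percent of summed FPM per kb within each mouse) of each light chain that pairs with Slc3a2 (left) and of each cationic carrier (right) in 6w+dox (n = 3), 12w+dox (n = 4) and 12w-res (n = 5) mice; SDs are in the text. Slc7a8 takes the largest part of the left bar in 12w-res, and Slc7a3 goes from 3.32% in 12w+dox to 23.9% in 12w-res on the right.

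The cationic carriers bring in arginine, lysine and ornithine. *Slc7a3* (CAT3), on chromosome X, stood at 1.2, 1.28 and 2.67 FPM in 6w+dox, 0.531, 0.628, 0.647 and 1.92 FPM in 12w+dox and 6.44, 9.65, 12.9, 14.3 and 26.9 FPM in 12w-res. Every rescued mouse was above every dox-treated mouse, and the rescued mice themselves spread over a range of 6.44 to 26.9 FPM. Its log2 fold change of 3.29 ± 0.37 (limma adjusted p = 1.37e-05) between 12w-res and 12w+dox was the largest of any member, and it ran from 3.02 to 3.57 with each mouse left out. *Slc7a1* (CAT1), the most abundant of the cationic carriers per length, went from 63.7 ± 10.9 FPM (SD, n = 4) in 12w+dox to 101.0 ± 16.6 FPM (SD, n = 5) in 12w-res, without overlap, and its log2 fold change of 0.66 ± 0.14 (limma adjusted p = 0.00205) stayed under the minimum fold change. *Slc7a2* (CAT2) was called between 12w-res and 6w+dox, at 1.64 ± 0.32 (limma adjusted p = 0.00152). Among the 3 cationic carriers, *Slc7a3* made up 6.74% ± 3.32 in 6w+dox, 3.32% ± 1.92 in 12w+dox and 23.9% ± 7.77 in 12w-res, and *Slc7a1* made up 89.3% ± 1.84 in 12w+dox and 69.7% ± 6.03 in 12w-res. *Slc7a2* and *Slc7a10* are outside the rule for named genes and were picked with their values in view.

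The Slc1 family splits into glutamate carriers of neurons and glia and the exchangers *Slc1a4* and *Slc1a5*. *Slc1a4* (ASCT1), which exchanges alanine, serine and cysteine, stood at 20.6, 24.7 and 30.5 FPM in 6w+dox, 7.79, 9.09, 12.0 and 15.01 FPM in 12w+dox and 31.1, 31.1, 32.4, 36.6 and 64.8 FPM in 12w-res. The 12w+dox mice were below both other groups and none of the 3 groups overlapped. This gave a log2 fold change of -1.19 ± 0.26 (limma adjusted p = 0.00691) between 12w+dox and 6w+dox and 1.77 ± 0.23 (limma adjusted p = 5.43e-05) between 12w-res and 12w+dox. The first call was lost on the totals, at -0.88 ± 0.28, and among females alone, at -0.87 ± 0.20, because the fold change fell under the minimum.

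*Slc1a5* (ASCT2), a glutamine exchanger, moved the other way without reaching the minimum fold change. It stood at 7.53, 8.09 and 8.86 FPM in 6w+dox, 13.7, 15.03, 15.8 and 17.03 FPM in 12w+dox and 6.69, 7.12, 7.44, 8.87 and 12.5 FPM in 12w-res. The 12w+dox mice were above all mice of both other groups, which overlapped. The log2 fold change was 0.88 ± 0.20 (limma adjusted p = 0.00732) between 12w+dox and 6w+dox and -0.85 ± 0.17 (limma adjusted p = 0.00165) between 12w-res and 12w+dox.

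Among the glutamate carriers, *Slc1a1* (EAAC1), the neuronal type, stood at 1.69, 2.32 and 2.62 FPM in 6w+dox, 1.12, 1.88, 2.03 and 4.81 FPM in 12w+dox and 5.42, 8.63, 9.45, 9.67 and 11.5 FPM in 12w-res. The rescued mice were above all dox-treated mice. The fitted log2 fold change was 1.78 ± 0.30 (limma adjusted p = 4.53e-04) against 12w+dox and 1.78 ± 0.33 (limma adjusted p = 9.51e-04) against 6w+dox, and among females alone the first had an adjusted p of 0.0531. *Slc1a7* (EAAT5), known from the retina, stood at 0.0924, 0.279, 0.729 and 1.64 FPM in 12w+dox and 3.33, 3.64, 4.82, 4.92 and 5.49 FPM in 12w-res, on 3 to 106 reads each. These groups did not overlap. The log2 fold change was 2.21 ± 0.34 (limma adjusted p = 2.40e-04).

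The glial glutamate carriers *Slc1a2* (GLT-1) and *Slc1a3* (GLAST) were lower at 12 weeks of dox. *Slc1a3* stood at 11.5, 12.4 and 12.5 FPM in 6w+dox, 2.42, 4.53, 6.35 and 6.67 FPM in 12w+dox and 6.66, 7.08, 7.38, 9.56 and 11.4 FPM in 12w-res. All 12w+dox mice were below all 6w+dox mice, and the rescued mice overlapped with 12w+dox. Its log2 fold change was -1.29 ± 0.28 (limma adjusted p = 0.00651) between 12w+dox and 6w+dox. *Slc1a2* stood at 7.92, 9.58 and 14.5 FPM in 6w+dox, 2.24, 3.08, 3.10 and 8.37 FPM in 12w+dox and 3.504, 3.72, 4.17, 4.47 and 6.47 FPM in 12w-res. One 12w+dox mouse overlapped with the 6w+dox mice. It was called lower against 6w+dox both in 12w+dox, at -1.37 ± 0.35 (limma adjusted p = 0.0139), and in 12w-res, at -1.16 ± 0.33 (limma adjusted p = 0.0157). The calls of *Slc1a2* and *Slc1a3* between 12w+dox and 6w+dox were lost on the totals, at -1.08 ± 0.40 and -0.99 ± 0.33. That of *Slc1a2* between 12w-res and 6w+dox was lost without 6w+dox replicate 3, at -0.92. Among females alone *Slc1a2* was -1.14 ± 0.48 with an adjusted p of 0.166 in the first of these comparisons and -1.15 ± 0.43 with 0.073 in the second, and neither was called.

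Markers of glia were also lower in 12w+dox than in 6w+dox. The summed level of 7 pituicyte and astroglia markers was 20.1 to 30.3 FPM in 6w+dox, 7.62 to 13.7 FPM in 12w+dox and 11.8 to 19.2 FPM in 12w-res. Of the 7, 4 were called lower between 12w+dox and 6w+dox, beside 4.04% of all genes. None of the 7 was at 0 throughout a group. Their part in the *Slc1a2* and *Slc1a3* results was not tested, and in bulk samples fewer cells of a type and less RNA per cell cannot be told apart.

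**Figure D3:**
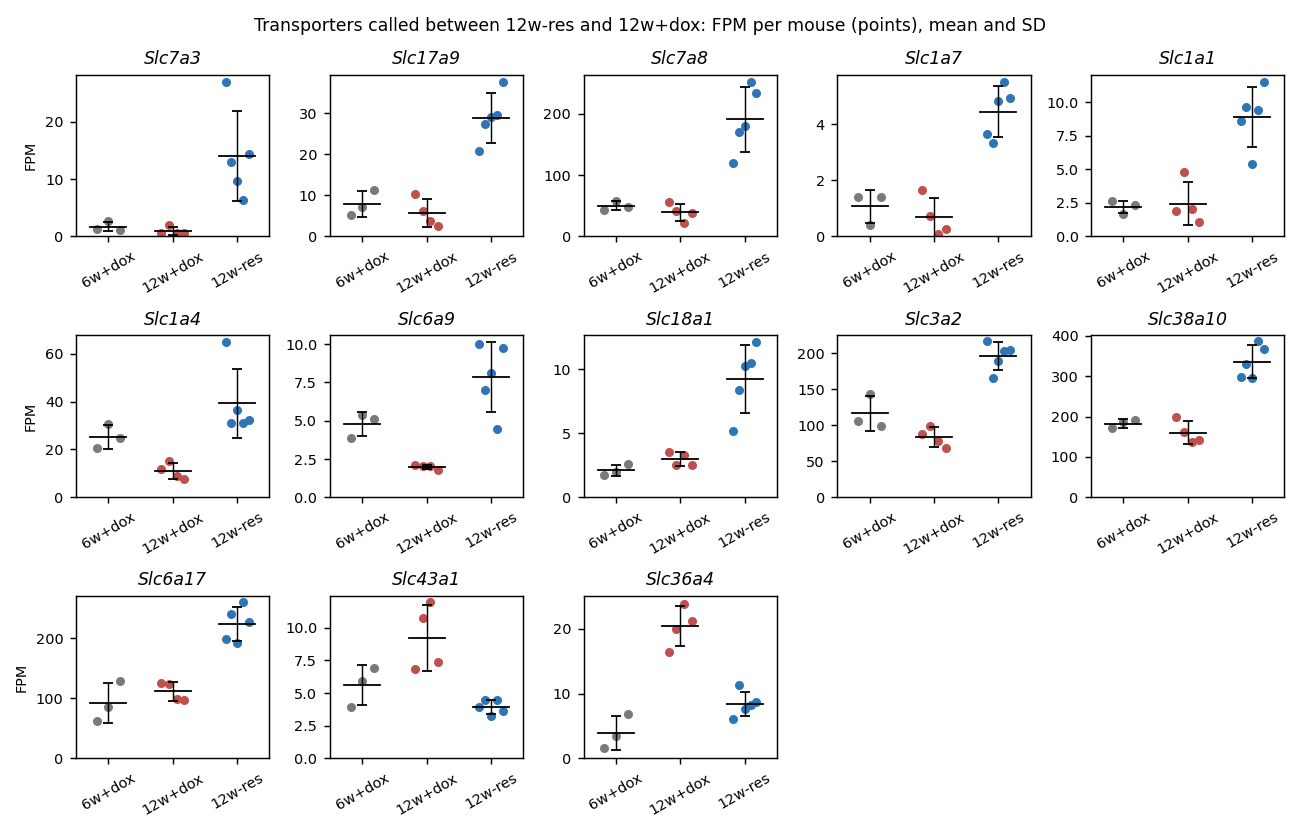
FPM (y axis, each panel starting at 0) of the 13 members called between 12w-res and 12w+dox, per mouse (points) with the mean (line) and SD (bar) of 6w+dox (n = 3), 12w+dox (n = 4) and 12w-res (n = 5). In the first 11 panels every 12w-res mouse is above every 12w+dox mouse, and in the last 2, Slc43a1 and Slc36a4, every 12w-res mouse is below.

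Among the sodium- and chloride-coupled Slc6 carriers, *Slc6a9* (GlyT1), a glycine carrier, stood at 3.90, 5.13 and 5.34 FPM in 6w+dox, 1.82, 2.03, 2.04 and 2.09 FPM in 12w+dox and 4.43, 7.03, 8.15, 9.73 and 10.04 FPM in 12w-res. The 12w+dox mice were below all others, and the other 2 groups overlapped. It had a log2 fold change of -1.07 ± 0.25 (limma adjusted p = 0.00822) between 12w+dox and 6w+dox and 1.70 ± 0.22 (limma adjusted p = 4.37e-05) between 12w-res and 12w+dox. The first lay close to the minimum fold change and was lost under 5 alternatives, among them the totals at -0.81 ± 0.29 and the fit without 6w+dox replicate 2 at -0.998. The second was called under all alternatives.

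*Slc6a15*, a carrier of branched-chain amino acids and proline, stood at 4.45, 4.80 and 4.83 FPM in 6w+dox, 8.91, 12.5, 12.8 and 14.5 FPM in 12w+dox and 9.93, 11.8, 12.1, 13.2 and 16.1 FPM in 12w-res. Both 12-week groups were above all 6w+dox mice and overlapped with each other. It was called in both comparisons with 6w+dox, at 1.26 ± 0.19 (limma adjusted p = 8.13e-04) for 12w+dox and 1.32 ± 0.18 (limma adjusted p = 1.04e-04) for 12w-res. *Slc6a17* (NTT4), a vesicular carrier of neutral amino acids, stood at 62.8, 85.2 and 129 FPM in 6w+dox, 97.7, 98.8, 124 and 126 FPM in 12w+dox and 193, 198, 228, 240.0 and 260.3 FPM in 12w-res. All rescued mice were above all dox-treated mice. Its log2 fold change against 12w+dox, 1.002 ± 0.17 (limma adjusted p = 5.75e-04), lay at the minimum fold change and lost its call under 10 alternatives, among them the totals at 0.35 ± 0.23 and 5 of the fits with 1 mouse left out, in which it was 0.94 to 0.99. Against 6w+dox it was 1.33 ± 0.19 (limma adjusted p = 1.39e-04), and that call was lost on the totals, at 0.996.

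*Slc6a6*, the taurine carrier, was high in all groups. It stood at 113, 138 and 149 FPM in 6w+dox, 196, 202, 215 and 246 FPM in 12w+dox and 135, 138, 143, 149 and 152 FPM in 12w-res. The 12w+dox mice were above both other groups. The log2 fold change, 0.69 ± 0.12 (limma adjusted p = 0.00181) against 6w+dox and -0.58 ± 0.10 (limma adjusted p = 7.75e-04) for 12w-res against 12w+dox, stayed under the minimum. On the totals both passed it, at 1.01 ± 0.18 and -1.23 ± 0.16.

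The vesicular carriers fill secretory and synaptic vesicles. *Slc17a9* (VNUT), which loads ATP and other nucleotides, stood at 5.12, 7.30 and 11.3 FPM in 6w+dox, 2.49, 3.82, 6.15 and 10.3 FPM in 12w+dox and 20.8, 27.4, 29.0, 29.7 and 37.7 FPM in 12w-res. The lowest rescued mouse was above the highest dox-treated mouse. This gave a log2 fold change of 2.39 ± 0.32 (limma adjusted p = 6.79e-05) against 12w+dox and 1.85 ± 0.35 (limma adjusted p = 0.00112) against 6w+dox. *Slc18a1* (VMAT1), the monoamine carrier of endocrine cells, stood at 1.75, 2.004 and 2.57 FPM in 6w+dox, 2.54, 2.54, 3.30 and 3.56 FPM in 12w+dox and 5.15, 8.35, 10.2, 10.5 and 12.1 FPM in 12w-res. The rescued mice were again above all dox-treated mice. The fitted log2 fold change was 1.45 ± 0.23 (limma adjusted p = 2.47e-04) against 12w+dox, where the totals gave 0.85 ± 0.26, and 1.87 ± 0.25 (limma adjusted p = 6.91e-05) against 6w+dox. *Slc18a2* (VMAT2), the monoamine carrier of neurons, was not called, at 4.71 ± 0.848, 2.82 ± 0.599 and 3.92 ± 0.988 FPM (SD) in 6w+dox, 12w+dox and 12w-res.

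The vesicular glutamate carriers load the main excitatory transmitter. *Slc17a7* (VGLUT1) was the most abundant of them per length and was not called in any comparison, at 41.9 ± 6.95, 32.6 ± 3.82 and 33.6 ± 5.55 FPM (SD) in the 3 groups. *Slc17a6* (VGLUT2) spread widely, at 8.91, 16.7 and 16.9 FPM in 6w+dox, 1.34, 2.65, 3.23 and 18.5 FPM in 12w+dox and 3.73, 4.2, 4.49, 6.08 and 7.49 FPM in 12w-res. One 12w+dox mouse was above all others, and the difference of 12w+dox from 6w+dox was not called, at -1.65 ± 0.57 (limma adjusted p = 0.0514). *Slc17a8* (VGLUT3) was near the lower limit, with 2 to 37 reads per mouse, and was called lower between 12w-res and 6w+dox, at -1.31 ± 0.30 (limma adjusted p = 0.00456), a call lost with a pseudocount of 1, at -0.90. *Slc32a1* (VGAT), which loads GABA and glycine, ranged from 0 to 2.11 FPM and was not called. As shares of the 8 vesicular carriers per length, *Slc17a9* went from 11.3% ± 4.42 in 12w+dox to 36.1% ± 5.51 in 12w-res, and *Slc17a7* from 54.3% ± 6.73 to 33.2% ± 6.69. For both genes the shares of these 2 groups did not overlap.

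Of the carriers that act at the lysosome or take up neutral amino acids with sodium or protons, *Slc36a4* (PAT4) differed most. It stood at 1.51, 3.47 and 6.79 FPM in 6w+dox, 16.5, 20.1, 21.2 and 23.9 FPM in 12w+dox and 6.14, 7.60, 8.21, 8.68 and 11.3 FPM in 12w-res. The 12w+dox mice were above all others. Its log2 fold change was 2.42 ± 0.33 (limma adjusted p = 4.65e-04) between 12w+dox and 6w+dox, the largest of any member in that comparison, and -1.25 ± 0.29 (limma adjusted p = 0.00397) between 12w-res and 12w+dox. Among females alone the latter was -1.11 ± 0.44 with an adjusted p of 0.113. Between 12w-res and 6w+dox, where 1 mouse of each group overlapped with the other group, the call at 1.17 ± 0.31 was lost without 6w+dox replicate 1, at 0.70, and on the totals, at 0.84 ± 0.39. *Slc43a1* (LAT3), a facilitated carrier of large neutral amino acids, stood at 6.84, 7.37, 10.7 and 12.0 FPM in 12w+dox and 3.23, 3.59, 3.95, 4.43 and 4.44 FPM in 12w-res, without overlap. It had a log2 fold change of -1.11 ± 0.21 (limma adjusted p = 9.78e-04), and its call was lost without 12w+dox replicate 3, at -0.98.

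The Slc38 family holds sodium-coupled carriers of glutamine and other neutral amino acids. Of 8 members, *Slc38a10* (SNAT10) alone was called, higher between 12w-res and 12w+dox, beside 6.24% of all genes called higher and 5.04% lower. The median log2 fold change of the family was 0.34 in that comparison, beside -0.0040 for all genes. *Slc38a10* stood at 171, 186 and 192 FPM in 6w+dox, 137, 143, 163 and 199 FPM in 12w+dox and 295, 299, 329.9, 368 and 388 FPM in 12w-res. All rescued mice were above all dox-treated mice. The log2 fold change was 1.07 ± 0.13 (limma adjusted p = 2.36e-05), with 0.41 ± 0.14 on the totals, 0.95 ± 0.16 among females alone and 0.999, just under the minimum, without 12w+dox replicate 3. *Slc38a2* (SNAT2), which cells raise when amino acids are short, was not called in any comparison, at 94.4 ± 12.7, 95.2 ± 7.97 and 114 ± 10.2 FPM (SD) in the 3 groups.

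Per length of transcript, the highest levels of the long-term experiment belonged to *Slc38a10*, *Slc3a2*, *Slc38a1*, *Slc6a6* and *Slc7a8*. In 12w-res these 5 stood at 73.4 ± 9.001, 69.7 ± 6.98, 52.2 ± 1.88, 23.2 ± 1.16 and 46.8 ± 12.98 FPM per kb (SD, n = 5). In 12w+dox the same 5 stood at 35.0 ± 6.16, 29.7 ± 4.83, 39.5 ± 7.21, 34.7 ± 3.66 and 9.67 ± 3.48 FPM per kb (SD, n = 4). In 12w+dox the values of *Slc38a10*, *Slc38a1* and *Slc6a6* differed by less than the SD of *Slc38a1*, and *Slc7a8* was below them all, whereas in 12w-res *Slc7a8* was above *Slc6a6*. In the short-term experiment the first 5 were *Slc38a1*, *Slc38a10*, *Slc6a6*, *Slc3a2* and *Slc6a17*, the same apart from *Slc7a8* and *Slc6a17*. Because the libraries were prepared in different ways, levels were not compared between the experiments.

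Genes that work beside the transporters were examined as 3 lists. The first holds 24 amino acid synthesis and ATF4 response genes, all of them tested. Between 12w-res and 12w+dox, 13 of the 24 were called higher and 0 lower, beside 6.24% and 5.04% of all genes. All 24 fitted values were above 0, with a median log2 fold change of 1.09. On the totals 5 were called higher, beside 244 of all 15315 genes, and among females alone 6, beside 775. *Phgdh*, the first enzyme of serine synthesis, was 27.1 ± 6.73, 5.29 ± 1.80 and 44.4 ± 15.7 FPM (SD) in 6w+dox, 12w+dox and 12w-res. It was called lower between 12w+dox and 6w+dox, at -2.28 ± 0.29 (limma adjusted p = 3.07e-04), and higher between 12w-res and 12w+dox, at 2.96 ± 0.26 (limma adjusted p = 1.10e-06). *Asns*, which makes asparagine, was 60.2 ± 14.4, 32.7 ± 7.48 and 114 ± 21.6 FPM in the same order, with a log2 fold change of 1.80 ± 0.18 (limma adjusted p = 4.53e-06) between 12w-res and 12w+dox. *Nupr1*, a stress-induced chromatin protein, had the largest difference of the list, at 3.39 ± 0.25 (limma adjusted p = 2.06e-07) and from 5.61 ± 2.52 to 60.4 ± 9.04 FPM.

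Enzymes of proline and serine synthesis on this list were called higher as well. The values here are on the size factors, and on the totals fewer genes of the list were called, as given above. Between 12w-res and 12w+dox the log2 fold change was 2.002 ± 0.25 for *Pycr1* and 1.26 ± 0.16 for *Aldh18a1*, both of proline synthesis, and 1.29 ± 0.24 for *Psat1* and 1.01 ± 0.23 for *Psph*, both of serine synthesis. The secreted factors *Fgf21* and *Stc2* had log2 fold changes of 2.58 ± 0.34 and 1.64 ± 0.25. The other 4 genes called were *Cth*, a cysteine synthesis enzyme, and the stress response genes *Chac1*, *Trib3* and *Sesn2*, with log2 fold changes from 1.16 to 1.35. *Atf4* itself, whose product is largely controlled at translation, was not called, at 0.71 ± 0.21. Between 12w-res and 6w+dox 8 of the 24 were called higher and 0 lower, beside 5.81% and 5.82% of all genes. Between 12w+dox and 6w+dox 0 were called higher and 1, *Phgdh*, lower, beside 3.15% and 4.04% of all genes. Without 6w+dox replicate 3 the count of lower genes on the list in that comparison was 4, beside 874 of all genes.

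**Figure D4:**
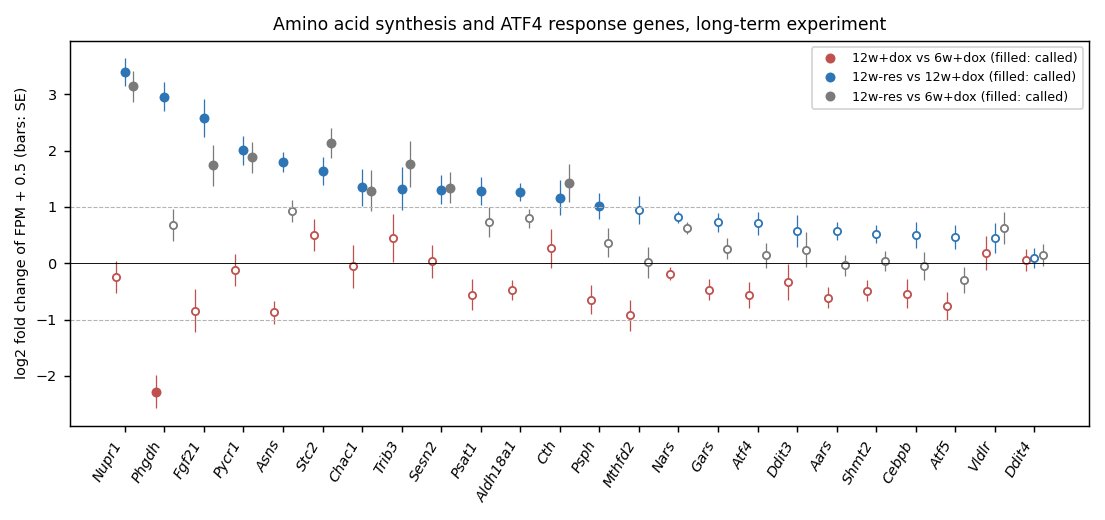
Log2 fold change (y axis, on FPM + 0.5, with SE bars) of the 24 amino acid synthesis and ATF4 response genes (x axis) in the 3 long-term comparisons; filled points are called and dashed lines mark an absolute log2 fold change of 1. All 24 blue points (12w-res against 12w+dox) are above 0 and 13 are filled, whereas 18 of the 24 red points (12w+dox against 6w+dox) are below 0 and 1 is filled.

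The second list holds 28 enzymes that make or break down transmitters, 21 of them tested. *Gldc*, which cleaves glycine, was called lower between 12w+dox and 6w+dox, at -2.31 ± 0.28 (limma adjusted p = 2.22e-04), and higher between 12w-res and 12w+dox, at 1.33 ± 0.24 (limma adjusted p = 8.02e-04). *Ache*, which degrades acetylcholine, was called higher in 12w-res against both other groups, at 1.77 ± 0.15 and 2.04 ± 0.16, and *Shmt1*, which interconverts serine and glycine, was called lower against both, at -1.98 ± 0.18 and -1.56 ± 0.20. *Gad2*, a GABA synthesis enzyme, was called higher between 12w-res and 6w+dox, at 1.21 ± 0.30. The third list holds 27 genes of lysosomal amino acid sensing by mTORC1, 25 of them tested. *Sesn3*, a relative of the leucine-binding *Sesn2*, was the only one called between 12w+dox and 6w+dox, at 1.29 ± 0.17 (limma adjusted p = 3.35e-04). Over all genes, 3.15% were called higher and 4.04% lower there. In limma 0 of the 25 were called between 12w-res and 12w+dox, beside 6.24% of all genes higher and 5.04% lower. Between 12w-res and 6w+dox 0 were called as well, beside 5.81% and 5.82%. DESeq2 and edgeR also called 0 in these comparisons. In limma 9 and 6 of the 25 had an unadjusted p under 0.05 in these 2 comparisons, beside 7249 and 6740 of all 15315 genes.

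Markers of other cell types moved between the same groups. Over all genes, 6.24% were called higher and 5.04% lower between 12w-res and 12w+dox, beside which the counts below stand. The summed level of 8 fibroblast and pericyte markers was 364 to 386 FPM in 6w+dox, 169 to 495 FPM in 12w+dox and 845 to 1181 FPM in 12w-res, and all 8 were called higher between 12w-res and 12w+dox. That of 7 endothelial markers was 190 to 246, 66.2 to 135 and 210 to 284 FPM in the same order, with 6 of 7 called higher between 12w-res and 12w+dox. The sum of 9 markers of other hormone cells, among them *Gh* and *Prl*, was 58671 to 94165 FPM in 6w+dox, 1218 to 13061 FPM in 12w+dox and 17338 to 34984 FPM in 12w-res. Between 12w-res and 12w+dox, 2 of these 9 were called higher, as were 1 of 6 melanotroph and corticotroph markers, 1 of 7 pituicyte and astroglia markers and 2 of 5 tested markers of stem and folliculostellate cells. In that comparison 1 of 6 neuron markers was called lower, and 0 of 8 macrophage and 0 of 2 tested lymphocyte markers were called. Of these, 7 macrophage markers and 0 lymphocyte markers had an unadjusted p under 0.05 in limma, beside 7249 of all 15315 genes. The part of these cell types in the transporter differences was not tested.

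The short-term experiment asked whether transporters moved within days of dox removal. The *GFP* reporter of the transgene had a mean of 1247 FPM in 16w +dox and of 606, 122 and 11.7 FPM after 1, 3 and 5 days, and it was called lower at 3 and 5 days. Of the 44 members, 0 were called in any of the 4 comparisons in limma. The background was 0.043% of the 13958 genes tested for 1d -dox, 0.129% for 3d -dox and 0.193% for 5d -dox, each against 16w +dox, and 0.0143% for 5d -dox against 1d -dox. At an unadjusted p under 0.05, 2 members were higher and 3 lower at 1 day, 4 and 8 at 3 days, 4 and 1 at 5 days, and 1 and 1 between 5 days and 1 day. Over all 13958 genes, 946 were higher and 877 lower at 1 day, and 1109 and 1214 at 3 days. At 5 days they numbered 1005 and 884, and between 5 days and 1 day 510 and 373. DESeq2 called 2 members higher and 1 lower at 3 days, beside 72 and 32 of all genes. It called 0 members in the other comparisons, and edgeR called 0. The groups did not overlap for 4, 12, 7 and 0 members, beside 11.2%, 21.6%, 19.3% and 7.8% of all genes. The 3 comparisons with 16w +dox share those 3 mice. In the comparisons of 1d -dox and 5d -dox with 16w +dox, sex and time off dox cannot be told apart. The summed level of the 8 fibroblast and pericyte markers, which was 84.6 to 124 FPM in 16w +dox and 72.4 to 130.2 FPM in 3d -dox, was 41.7 to 61.4 FPM in 1d -dox and 36.9 to 64.1 FPM in 5d -dox. Endothelial markers summed to 24.1 to 44.5 FPM in 16w +dox, 13.6 to 17.8 FPM in 1d -dox and 10.8 to 15.3 FPM in 5d -dox, and markers of other hormone cells to 199.97 to 257 FPM, 23.3 to 107 FPM and 26.0 to 102 FPM in the same order. At 3 days the melanotroph and corticotroph sum was 12564 to 29078 FPM, without overlap with the 35348 to 38217 FPM of 16w +dox. *Pomc* made up nearly all of this sum, at 11837 to 28065 FPM in 3d -dox and 34394 to 36965 FPM in 16w +dox. Of the 6 markers on this list, 3 had fitted values above 0 and 3 below in that comparison, and 0 were called. The part of these cell types in the transporter values was not tested.

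The comparison of 3d -dox with 16w +dox is between males. *Slc6a15* had the smallest adjusted p there, with 3.78, 4.02 and 7.06 FPM in 16w +dox and 1.94, 2.35 and 3.08 FPM in 3d -dox. The groups did not overlap, and the log2 fold change was -0.85 ± 0.21 (limma adjusted p = 0.0838). It was among the 3 genes called by DESeq2, at -1.01 ± 0.25 with an adjusted p of 0.00639. *Slc1a1* stood at 0.424, 0.766 and 0.855 FPM in 16w +dox, 1.19, 1.52, 1.72 and 2.60 FPM in 1d -dox, 0.891, 1.86 and 2.76 FPM in 3d -dox and 0.649, 0.673 and 1.41 FPM in 5d -dox. All mice at 1 and 3 days exceeded the 16w +dox mice, and the 5d -dox mice overlapped with the latter. This gave a log2 fold change of 0.92 ± 0.28 (limma adjusted p = 0.187) at 1 day and 0.92 ± 0.30 (limma adjusted p = 0.165) at 3 days, and DESeq2 gave 1.43 ± 0.45 with an adjusted p of 0.0496 at 3 days. *Slc6a11* (GAT3), a GABA carrier outside the naming rule that was chosen after its values were seen, was the other gene called higher by DESeq2 at 3 days, at 1.29 ± 0.40 with an adjusted p of 0.0443.

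Of the 13 members called between 12w-res and 12w+dox, *Slc7a3* was not listed in the short-term table, which lacks nearly all chromosome X genes. Its early values are therefore unknown. None of the others was called at 1 to 5 days in limma, although DESeq2 called *Slc1a1* at 3 days. *Slc7a8* stood at 13.5, 15.05 and 17.3 FPM in 16w +dox and 17.4, 25.3 and 25.8 FPM in 5d -dox. These groups did not overlap, and the log2 fold change was 0.55 ± 0.20 (limma adjusted p = 0.25). *Slc3a2* had a log2 fold change of 0.16 ± 0.17 at 1 day, -0.22 ± 0.18 at 3 days and 0.19 ± 0.18 at 5 days. *Slc17a9* had 0.07 ± 0.28, -0.16 ± 0.30 and 0.56 ± 0.30, and *Slc1a4* had 0.18 ± 0.27, -0.31 ± 0.28 and 0.01 ± 0.28, in the same order. *Slc18a2* had 0 to 13 reads per mouse, and no fold change is given for it. Of the 3 lists of neighbouring genes, 0 members were called in any short-term comparison in limma. Of the 24 amino acid synthesis and ATF4 response genes 7, 4, 3 and 1 had an unadjusted p under 0.05 in the 4 comparisons. Over all 13958 genes these counts were 1823, 2323, 1889 and 883. DESeq2 called 1 of the 24 higher at 5 days, beside 36 of all genes, and edgeR called 0.

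**Figure D5:**
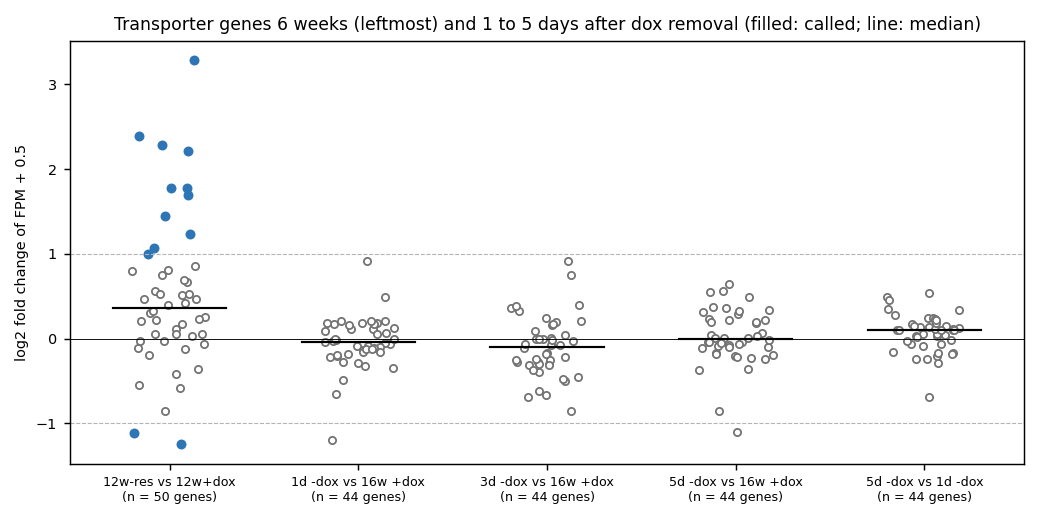
Log2 fold change (y axis, on FPM + 0.5) of each member (point) between 12w-res and 12w+dox (50 genes) and in the 4 short-term comparisons (44 genes each); filled points are called, lines are medians and dashed lines mark an absolute log2 fold change of 1. The leftmost column has 13 filled points and a median of 0.36, and the 4 short-term columns have 0 filled points and medians between -0.09 and 0.10.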

How the data were processed

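Gene expression was measured by RNA-seq in mouse pituitaries, with 12 mice in the long-term experiment (polyA-enriched libraries) and 13 in the short-term experiment (libraries depleted of rRNA). The authors aligned reads with STAR to mm10, counted them on RefSeq genes and deposited a signal value per gene, FPM, which is the read count divided by a DESeq2 size factor. The strand setting of the counting is not given in the sources used here, so reads of overlapping genes on opposite strands could not be told apart.

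From the deposited values, counts of whole reads were recovered for 100% of 183780 long-term and 182143 short-term values, within 0.1 read. The 4 lines of the short-term table that name no gene held 68.8 to 75.0% of its reads and stayed out of every total. A gene was tested where over 50% of the mice of any 1 condition had 10 reads or more. The test was limma 3.58.1, run in R 4.3.3 with a prior trend and 1 fit per experiment on values transformed as log2(FPM + 0.5), with Benjamini-Hochberg adjustment over all genes; fold changes are on that scale and understate the change of low genes. Each sample is 1 mouse. No 2 mice of a group agreed within counting noise. edgeR 4.0.16 and DESeq2 1.42.0 were run on the recovered reads as alternatives. On simulated counts of 14084 genes, limma recovered 198 of 200 changed genes for 12w-res against 12w+dox. For 3d -dox against 16w +dox it recovered 191 of 200, on 12550 genes. These sets are smaller than the 15315 and 13958 genes tested in the mice, because genes with few reads were left out. All planted changes were larger than the minimum fold change, and 1 fixed spread was used for all genes. High recovery was therefore likely from the start. The share of real differences that limma finds in these mice, or among genes with few reads, was not tested. Other alternatives were a pseudocount of 0.1 or 1, other filters and scalings, a block for the replicate number, a term for sex, females alone, no minimum fold change and leaving out each mouse.

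Members and gene lists were chosen with earlier results of these data known. Named were, per long-term comparison, up to 8 called members in each direction without overlap, the 5 most abundant members of each experiment per length, and a set of vesicular, transmitter and growth-linked carriers; of each pathway list up to 4 called genes per comparison. Slc7a2, Slc7a6, Slc7a10, Slc6a11, Slc17a5, Atf4 and the further called genes of the ATF4 list were named after their values were seen. Cell type lists covered melanotrophs and corticotrophs, other hormone cells, stem and folliculostellate cells, pituicytes and astroglia, endothelium, fibroblasts and pericytes, macrophages, neurons and lymphocytes. Transcript lengths came from GENCODE vM21 and promoter windows from RefSeq on GRCm38.p6.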

Additional observations from a re-analysis of the deposited data

Results flagged for a closer look

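In 85 groups of 4 or 5 mice, 6 member values stood farther from the rest of their group than Dixon's 95% limit allows. Most of them fell in 12w+dox replicate 1 and 12w-res replicate 1. Because the groups share their mice, the count cannot be set against the 1 in 20 of independent groups. In 12w+dox replicate 1, *Slc17a6* stood at 18.5 FPM (531 reads), against 1.34 to 3.23 FPM in the other 3 mice, and *Slc1a2* stood at 8.37 FPM (240 reads), against 2.24 to 3.10 FPM. The same mouse had the highest summed markers of its group for other hormone cells, 13061 FPM against 1218 to 3373 FPM, for pituicytes and astroglia, 13.7 FPM against 7.62 to 8.69 FPM, for endothelium, 135 FPM against 66.2 to 119.9 FPM, and for fibroblasts and pericytes, 495 FPM against 169 to 382 FPM. It was also highest for macrophages, 133 FPM against 102 to 112 FPM. For stem and folliculostellate cells it was lowest, 164 FPM against 165 to 186 FPM, as for neurons, 1284 FPM against 1322 to 1676 FPM. In 12w+dox replicate 2, *Slc7a3* stood at 1.92 FPM (66 reads), against 0.531 to 0.647 FPM. In 12w-res replicate 1, *Slc1a4* stood at 64.8 FPM (1246 reads), against 31.1 to 36.6 FPM, *Slc7a5* stood at 126 FPM (2423 reads), against 61.5 to 75.3 FPM, and *Slc17a8* stood at 1.09 FPM (21 reads), against 0.106 to 0.182 FPM. That mouse had the highest summed markers of its group for other hormone cells, 34984 FPM against 17338 to 23688 FPM, and for endothelium, 284 FPM against 210 to 236 FPM. It was also highest for stem and folliculostellate cells, 197 FPM against 128 to 168 FPM, and for lymphocytes, 2.44 FPM against 0.768 to 1.48 FPM. For fibroblasts and pericytes it was lowest, 845 FPM against 864 to 1181 FPM. The part of these markers in the 6 values was not tested.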

How the results depend on the processing

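No called member changed direction. There were 7, 13 and 15 calls between 12w+dox and 6w+dox, 12w-res and 12w+dox, and 12w-res and 6w+dox. Of these, 3, 6 and 10 were kept under every alternative in which the gene was tested. *Slc1a7* and *Slc7a11* are among the kept calls but were tested under 24 of the 25 alternatives. They were not tested under the filter of 10 reads in every mouse. Scaling to the totals of the recovered reads gave 6 higher and 0 lower, 7 and 5, and 10 and 5. Over all genes it gave 1058 and 317, 244 and 3364, and 497 and 1638. With no minimum fold change there were 7 higher and 6 lower, 22 and 4, and 22 and 3. Over all genes these counts were 1600 and 1833, 2975 and 2807, and 2606 and 2566. Females alone left 1 lower between 12w+dox and 6w+dox, beside 316 of all genes. Between 12w-res and 6w+dox a pseudocount of 1 left 1 lower, beside 731 of all genes. A filter of 10 reads in every mouse also left 1, beside 647 of 13237 genes. That filter left *Slc7a10* and *Slc17a8* untested. DESeq2 called 2 members higher and 1 lower at 3 days off dox, beside 72 and 32 of all genes. With each mouse left out, the count of lower members between 12w-res and 12w+dox ranged from 1 to 2. It was 1 without 12w+dox replicate 3, beside 710 of all genes. The other counts of members stayed within 1.5 times. For the 3 pathway lists, 33 counts moved by more than that and 465 did not, and with a mouse left out 13 did and 515 did not. The cause of these changes was not tested.

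With the replicate number as a block, 3 members were higher and 3 lower between 12w+dox and 6w+dox, beside 416 and 515 of all genes. They numbered 10 and 2 between 12w-res and 12w+dox, beside 928 and 791. Between 12w-res and 6w+dox they numbered 12 and 3, beside 811 and 799. Same-numbered mice correlated between -0.165 and 0.237 (long-term) and between -0.208 and 0.168 (short-term), and 1 of 12 and 3 of 13 mice correlated best with their own number, so the numbers do not pair the mice. Members with few reads, such as *Slc7a10*, *Slc7a11*, *Slc17a8* and *Slc1a7*, carry the widest counting error, and the short-term libraries had fewer reads on genes.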
